A study of Mus musculus with 2 samples.

Results

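Dense clusters of accessible regions away from promoters were described in the femoral growth plates of the embryonic mouse. The members were chosen by measured values, namely the positions of the peaks in the proximal and the distal list. Overlapping peaks of both lists were merged, merged regions with their nearest edge more than 3 kb from every annotated transcription start site were kept, regions with gaps of at most 12500 bp were stitched together, and all regions of stitched clusters of 3 or more regions were retained. This gave 1353 regions in 408 clusters, out of 32388 merged regions and 16673 merged regions away from start sites. The clustered regions were thus 4.18% of all merged regions and 8.11% of the non-promoter regions. The remaining 15320 non-promoter regions, of which 3226 lay in 1613 pairs and 12094 stood alone, were used for comparison.

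ATAC-seq, which marks accessible DNA by the insertion of sequencing adapters with a transposase, had been carried out on growth plate cells, labelled as chondrocytes, from FVB mouse embryos at E15.5, a late embryonic stage at which the ends of the femur are still cartilage. Both groups share the strain (FVBNJ in the labels) and the age, and the labels name no treatment or engineered allele. Cartilage was taken from either end of the left and right femur, without the shaft, and 1 pool per end was made from all embryos of a litter, about 8 animals. The tissue held all zones of the growth plate together with perichondrium and the cartilage of the bone ends, so a peak cannot be assigned to one cell type. Each library held 50000 cells, and the list of each end combined 2 biological replicates. There was therefore 1 list per end, without peak heights, and no difference between the ends carries a replicate error. The proximal list held 28257 peaks and the distal list 27958, all on the 19 autosomes. No depth can be given from lists of positions. Intervals given for shares are 95% Wilson intervals, which cover counting error only, and neighbouring regions are not independent of each other.

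Regulatory elements that act on a gene from a distance, known as enhancers, are bound by transcription factors and are often accessible in the cells in which they act. Several enhancers of one gene can lie close together, and groups of neighbouring elements are known at genes that define a cell type. Stitching neighbours within this distance is a customary first step in naming such groups, which are then usually ranked by signal. The lists hold no signal, so the clusters were ranked by their number of regions, and ties were broken by the base pairs covered. Accessible DNA away from protein-coding genes is not always an enhancer. RNA polymerase III transcribes tRNA genes and other small RNA genes from short promoters that lie within the genes, and these genes are absent from many gene annotations.

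Sequences of 3 kinds are shown because the results turn on them. The first is the gene of 4.5S RNA, a small RNA of rodents related to the B1 repeat, since copies of it lay in the regions of the top-ranked pair of clusters. It is given 5′ to 3′ in GRCm38 from the RefSeq assembly, and capitals mark the letters GTTCGANNC, which match the B box, an internal promoter element of genes transcribed by RNA polymerase III.
Rn4.5s, chr6:47654921-47655094, minus strand: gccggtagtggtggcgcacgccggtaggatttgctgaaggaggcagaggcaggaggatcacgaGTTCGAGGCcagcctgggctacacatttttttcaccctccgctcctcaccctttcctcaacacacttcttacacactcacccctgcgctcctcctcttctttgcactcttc

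The second kind is tRNA genes that lay in clustered regions. Capitals again mark GTTCGANNC. The Met pair came from different regions of the cluster of rank 11 and had 0 differences, while the Leu pair came from 1 region of that cluster and had 2 differences. The His gene stands for 3 identical genes in the cluster of rank 214.
n-TMcat14, tRNA-Met, chr13:21167604-21167676, plus strand: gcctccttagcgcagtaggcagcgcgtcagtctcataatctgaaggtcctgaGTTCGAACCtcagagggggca
n-TMcat15, tRNA-Met, chr13:21169687-21169759, minus strand: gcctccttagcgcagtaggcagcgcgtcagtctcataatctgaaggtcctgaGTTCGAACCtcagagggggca
n-TLaag7, tRNA-Leu, chr13:21170036-21170117, plus strand: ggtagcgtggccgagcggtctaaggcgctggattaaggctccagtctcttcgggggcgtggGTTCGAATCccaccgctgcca
n-TLaag5, tRNA-Leu, chr13:21170206-21170287, plus strand: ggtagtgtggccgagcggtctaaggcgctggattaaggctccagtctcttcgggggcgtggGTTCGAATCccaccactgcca
n-THgtg3, tRNA-His, chr2:122377363-122377434, minus strand: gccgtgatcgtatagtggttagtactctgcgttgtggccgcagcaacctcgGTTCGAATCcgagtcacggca

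The third kind is the central 200 bp of regions in clusters at protein-coding genes. For each cluster, the region with the most different motifs was taken, and capitals mark the motif letters on either strand. The AP-1 motif was searched as TGACTCA and the RUNX motif as TGTGGTT. The TEAD motif was searched as GGAATG, the E-box as CAGCTG and the PBX motif as TGATTGA. Each can also appear as its reverse complement. In the Plekha5 window the TEAD and AP-1 letters share bases, and in the Trim32 window the AP-1 letters run directly into the E-box. The 9 windows were picked from a larger set after their letters had been seen, to show AP-1 letters alone and beside other motifs, and say nothing of how often these occur.
Dlgap1 cluster, peaks of both ends, chr17:70720010-70720209, plus strand: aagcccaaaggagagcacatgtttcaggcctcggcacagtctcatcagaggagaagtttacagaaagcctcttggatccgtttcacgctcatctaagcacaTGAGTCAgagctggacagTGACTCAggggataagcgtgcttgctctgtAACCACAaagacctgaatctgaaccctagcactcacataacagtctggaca
Trim32 cluster, peaks of both ends, chr4:65477263-65477462, plus strand: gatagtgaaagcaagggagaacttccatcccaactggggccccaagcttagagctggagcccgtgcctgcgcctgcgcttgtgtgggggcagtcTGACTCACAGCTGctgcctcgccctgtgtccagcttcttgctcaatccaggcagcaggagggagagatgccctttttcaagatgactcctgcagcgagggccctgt
Rin2 cluster, peaks of both ends, chr2:145737329-145737528, plus strand: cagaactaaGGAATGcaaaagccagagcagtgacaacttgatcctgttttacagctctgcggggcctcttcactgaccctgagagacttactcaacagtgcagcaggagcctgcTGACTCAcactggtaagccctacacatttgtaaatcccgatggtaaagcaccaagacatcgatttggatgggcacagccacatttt
Plekha5 cluster, distal peak only, chr6:140477250-140477449, plus strand: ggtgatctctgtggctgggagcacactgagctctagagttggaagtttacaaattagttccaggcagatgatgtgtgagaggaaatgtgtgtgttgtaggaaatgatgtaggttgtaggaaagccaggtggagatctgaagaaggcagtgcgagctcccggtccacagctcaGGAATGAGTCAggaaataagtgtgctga
Lrrc1 cluster, peaks of both ends, chr9:77482456-77482655, plus strand: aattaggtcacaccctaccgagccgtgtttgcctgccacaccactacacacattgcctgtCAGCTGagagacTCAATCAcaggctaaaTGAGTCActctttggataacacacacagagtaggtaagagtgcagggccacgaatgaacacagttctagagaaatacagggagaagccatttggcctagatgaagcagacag
Tgfb2 cluster, peaks of both ends, chr1:186527704-186527903, plus strand: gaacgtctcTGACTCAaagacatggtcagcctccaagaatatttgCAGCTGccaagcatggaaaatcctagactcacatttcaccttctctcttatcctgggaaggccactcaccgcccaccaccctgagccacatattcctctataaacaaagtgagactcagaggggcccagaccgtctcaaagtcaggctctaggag
Sulf1 cluster, peaks of both ends, chr1:12623318-12623517, plus strand: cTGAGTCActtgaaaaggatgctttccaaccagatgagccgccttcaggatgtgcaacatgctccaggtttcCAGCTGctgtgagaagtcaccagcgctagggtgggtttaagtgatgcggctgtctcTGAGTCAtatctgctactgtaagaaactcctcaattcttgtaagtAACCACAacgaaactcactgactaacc
Has2 cluster, proximal peak only, chr15:56970137-56970336, plus strand: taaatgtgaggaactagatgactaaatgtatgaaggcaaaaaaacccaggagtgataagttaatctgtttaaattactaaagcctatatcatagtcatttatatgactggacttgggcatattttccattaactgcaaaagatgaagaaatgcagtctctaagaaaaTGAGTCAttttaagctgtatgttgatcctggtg
Sox9 downstream cluster, peaks of both ends, chr11:113001174-113001373, plus strand: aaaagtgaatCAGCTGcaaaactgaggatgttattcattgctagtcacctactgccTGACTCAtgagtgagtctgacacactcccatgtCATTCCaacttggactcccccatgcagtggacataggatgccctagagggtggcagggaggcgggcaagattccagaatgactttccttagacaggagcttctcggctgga

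Most clusters were small. There were 312 clusters of 3 regions, 75 of 4, 15 of 5, 3 of 6, and 1 each of 7, 8 and 9 regions. The 21 clusters of 5 or more regions held 117 regions. Clusters spanned a median of 14.7 kb, from 1.66 to 54.6 kb, and 6.43 Mb in all. Neighbouring regions of a cluster were separated by a median of 5681 bp, and the regions themselves took up a median of 14.1% of the span. At the limits of the rule, the widest gap inside a cluster was 12500 bp and the next wider gap between non-promoter regions was 12509 bp. The clustered region nearest to a start site was 3060 bp away, and the farthest region left out as a promoter region was at 2999 bp. These values follow from the rule and are given as a description.

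The clustered regions resembled other non-promoter regions in width and position. Their median width was 612 bp against 599 bp for the other non-promoter regions. Introns of protein-coding genes held 36.1% of the clustered regions (interval 33.6 to 38.7%) and 37.2% of the others (36.5 to 38.0%). Intergenic sequence held 52.8% (50.2 to 55.5%) and 51.0% (50.2 to 51.8%). Exons held 5.40% and 5.76%. The median GC content of the central 200 bp was 49.5% in clustered regions and 48% in the others. The share of non-promoter regions that fell in clusters ranged from 5.07% on chromosome 16 to 12% on chromosome 19.

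Peaks of both femur ends lay in 892 of the 1353 clustered regions, or 65.9% (63.4 to 68.4%), where the share over all non-promoter regions was 61.8%. A proximal peak alone was found in 258 clustered regions (19.1%, against 21.2% of all non-promoter regions) and a distal peak alone in 203 (15.0%, against 17.0%). Among the other non-promoter regions, 61.5% had peaks of both ends (60.7 to 62.2%), with 64.4% in pairs (62.7 to 66.0%) and 60.7% in regions that stood alone (59.8 to 61.6%). Regions within 3 kb of a start site had 84.8%. The share in clusters was above that of the other non-promoter regions on 16 of 19 chromosomes, which are not replicates. The difference ran from -7.89 percentage points on chromosome 16 to 15.6 on chromosome 18, and was 0.118 on chromosome 7. By cluster size, the share with peaks of both ends was 65.2% in clusters of 3, 65.7% in clusters of 4 and 72.6% in clusters of 5 or more (63.9 to 79.9%).

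Without regions at a 4.5S RNA copy or a tRNA gene, 65.0% of the clustered regions (62.4 to 67.5%) and 61.4% of the other non-promoter regions (60.6 to 62.2%) had peaks of both ends. When RefSeq gene starts were treated as start sites too, 1108 regions in 338 clusters remained, of which 62.9% had peaks of both ends (60.0 to 65.7%), against 61.2% of the other non-promoter regions (60.4 to 62.0%). In clusters of 5 or more that held neither a 4.5S RNA copy nor a tRNA gene, the share was 66.3% (56.3 to 75.02%). Region width differed with the call. A merged region with peaks of both ends is the union of overlapping peaks, so the merging in part fixes that it is wider. Clustered regions with peaks of both ends had a median width of 690 bp, those with a proximal peak alone 490 bp and those with a distal peak alone 463 bp. Among the narrowest 25% of non-promoter regions, up to 467 bp, the share was 32.2% in clusters (27.3 to 37.5%) and 34.3% elsewhere (32.8 to 35.8%). Among the widest 25%, above 761 bp, it was 90.6% (87.1 to 93.2%) and 84.5% (83.3 to 85.6%). The part of width in the difference between clustered and other regions was not tested.

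**Figure D1:**
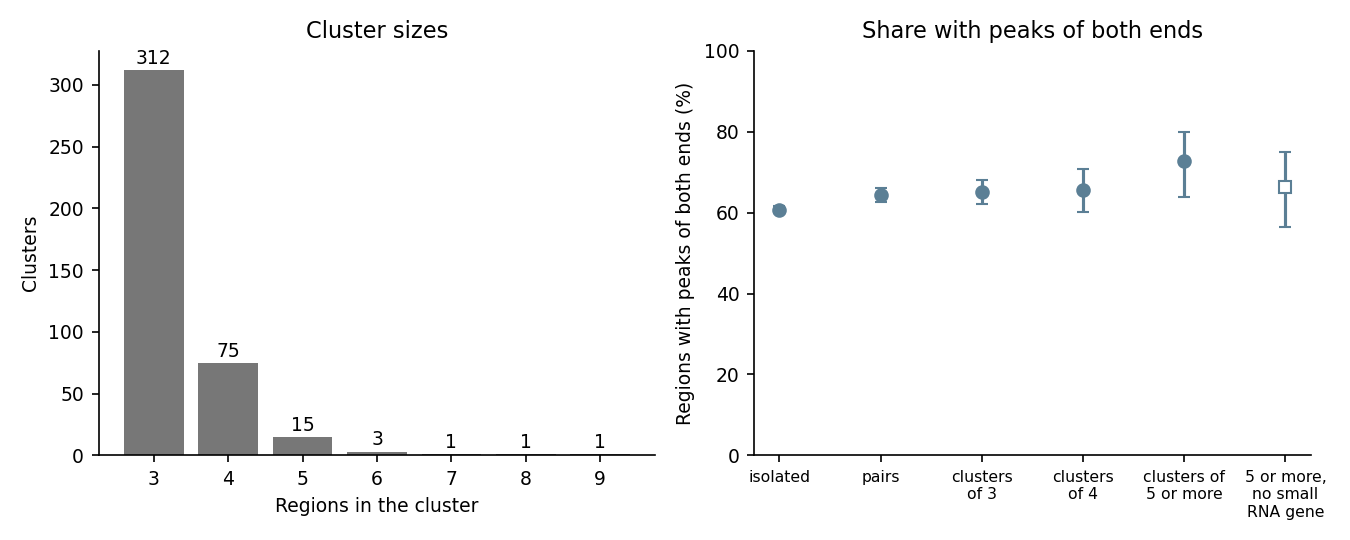
Left, number of clusters (y axis) by the number of regions they hold (x axis), with the count above each bar. Right, percent of regions with peaks of both femur ends in isolated regions, pairs and clusters, with bars for 95% Wilson intervals; the open square leaves out the 3 clusters of 5 or more regions that hold a 4.5S RNA copy or a tRNA gene, and lies at 66.3% against 72.6% for all clusters of 5 or more.

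Most clusters mixed shared and end-specific regions. All regions had peaks of both ends in 110 clusters (27.0%), and 391 clusters had at least 1 such region. Proximal-only but no distal-only regions occurred in 136 clusters, the reverse in 90, and both kinds in 72. In 3 clusters, those nearest to Has2, Htr2a and Socs5, all regions had a proximal peak alone, and in 2, nearest to Gpat4 and Trmt9b, all had a distal peak alone. These 5 clusters held 3 regions each, and apart from Has2 their genes were named after the values had been seen. Next to a proximal-only region in the same cluster, the neighbour was proximal only in 15.9% and distal only in 18.7% of 353 cases. Next to a distal-only region, it was distal only in 20.9% and proximal only in 22.2% of 297 cases. The neighbour had peaks of both ends in 65.4% of the 353 and in 56.9% of the 297 cases. Over all clustered regions the shares were 65.9% with peaks of both ends, 19.1% proximal only and 15.0% distal only. Each neighbouring pair was counted from both of its members.

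The first and second clusters by rank lay in a tandem array of 4.5S RNA genes on chromosome 6 and not at an evident protein-coding gene. The first, at chr6:47650591-47686565, held 9 regions. The nearest protein-coding start site, that of the Polycomb methyltransferase gene Ezh2, was 55250 bp away. The second, at chr6:47739634-47772583, held 8 regions, 40781 bp from the start of Pdia4, which encodes a protein disulfide isomerase of the endoplasmic reticulum. All 17 regions had peaks of both ends, and their widths ran from 546 to 1535 bp. A search of the autosomes for the Rn4.5s sequence shown above, with at least 90% identity over at least 80% of its 174 bases, found 17 copies, all on chromosome 6 and all on the minus strand. Each copy overlapped a merged region. Of these, 8 lay in the first cluster, 8 in the second, and the last lay in a region within 3 kb of a start site. Among the 15320 other non-promoter regions, 0 held a copy. Thus 16 of the 17 regions of the leading pair overlapped a 4.5S RNA copy.

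The copies were close to identical, with 11 of the 17 matching the RefSeq gene at every base. In the first cluster, neighbouring copies started between 4308 and 4340 bp apart. In the second, they started between 4259 and 5598 bp apart, with a median of 4357 bp. The sequence between both clusters measured 53.1 kb, of which 50 kb were undetermined bases in the assembly. Its determined bases held 0 copies, and the undetermined bases could not be searched. The regions reached further upstream than downstream of all 16 copies. Their edge lay a median of 495 bp upstream of the copy, with a range of 276 to 1189 bp, and a median of 139 bp downstream, up to 172 bp. At 2 copies of the second cluster the region ended inside the copy. None of the 17 regions had AP-1 letters in its central 200 bp, whereas RUNX letters were found in 1 region of the first cluster and in 6 of the second.

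This repetition bears on at least 16 of the 17 calls. The outermost region of the first cluster, at chr6:47650591-47651832, held no copy. Shorter or more diverged repeats in it were not searched. A read that matches several copies equally well cannot be assigned to one of them, and a filter on mapping quality is not given in the sources used here. Accessibility of all 16 copies in the clusters and accessibility of a few, with reads spread over all, cannot be told apart. Reads from any copies that the assembly lacks could also add to these calls. The part of copy number in them was not tested. Copies inside a cluster were otherwise rare: 4 of the 408 clusters held regions with at least 90% identity over at least 50% of the shorter region, and 2 of these were the clusters of the 4.5S RNA array. The other pair, nearest to Fzd8 and Hrh1, was named after the values had been seen.

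Genes of tRNAs made up a further group. In 6 clusters, 19 regions overlapped 27 tRNA genes of the RefSeq annotation, which the start sites used by the rule did not include. The share of clustered regions with a tRNA gene was 1.40% (0.901 to 2.18%), against 0.307% (0.231 to 0.408%) of the other non-promoter regions and 0.407% of regions within 3 kb of a start site. Of the 19 regions, 18 had peaks of both ends. The cluster of rank 11, at chr13:21158840-21173017, had 3 regions nearest to Trim27, which encodes a ubiquitin ligase, and 2 nearest to the odorant receptor gene Olfr1368. Its 5 regions had peaks of both ends, and 4 of them held 8 tRNA genes, for Glu, Phe, Met, Leu and Gln. The cluster of rank 26, at chr19:12002162-12013693, had Olfr1423 as its nearest gene and held tRNA genes for Phe, Lys, Arg and Val in 3 of its 4 regions, all with peaks of both ends. That cluster was named after the values had been seen, as was the one of rank 214 on chromosome 2, whose 3 tRNA-His genes were identical and lay between 122375494 and 122378039. The 27 genes had 20 different sequences, and 21 of them held the B box letters on their own strand.

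The letters GTTCGANNC occurred somewhere in 49 clustered regions (3.62%), in 1.16% of the other non-promoter regions and in 2.86% of all merged regions. The 49 include 31 of the 35 clustered regions with a 4.5S RNA copy or tRNA gene. Within the central 200 bp they occurred in 0.739% of clustered and 0.472% of all merged regions. With the small RNA genes included, 125 clustered regions (9.24%, interval 7.81 to 10.9%) lay within 3 kb of a gene start in RefSeq that the GENCODE annotation did not place there, against 5.57% (5.22 to 5.95%) of the other non-promoter regions. Among the 125 were 9 regions of the cluster of rank 1, 3 of rank 2, 5 of rank 11 and 4 of rank 26. When the regions with a 4.5S RNA copy or a tRNA gene were left out before stitching, 1315 regions in 400 clusters remained.

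**Figure D2:**
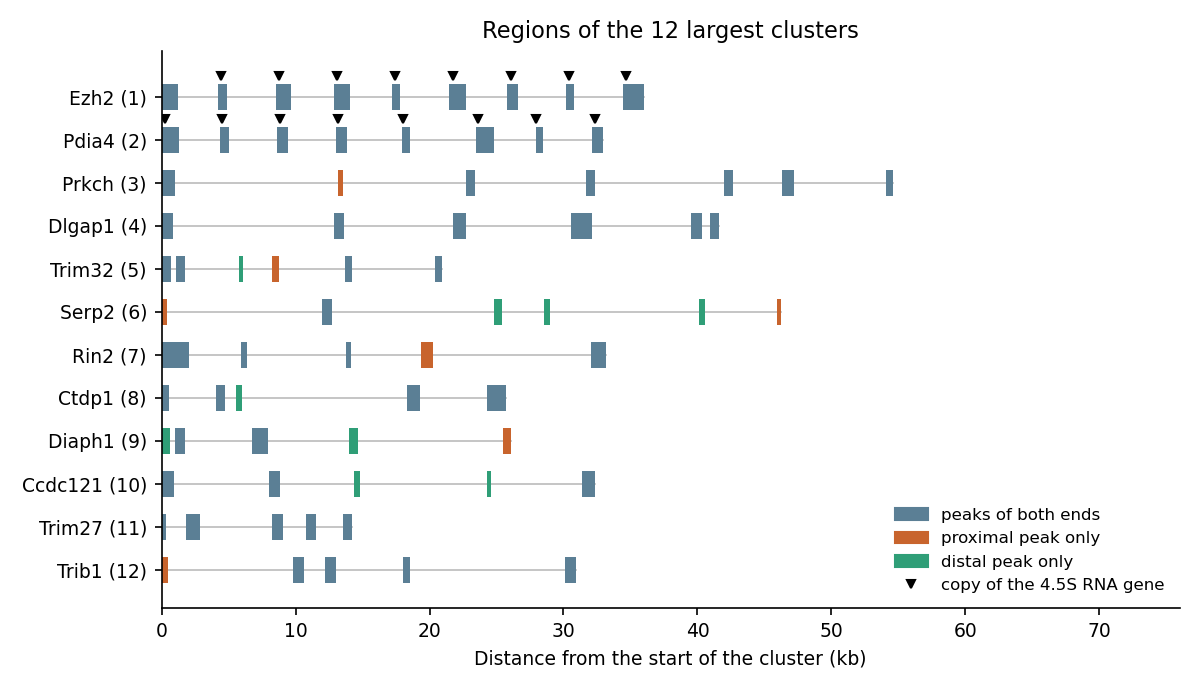
Regions of the 12 clusters with the most regions, drawn to scale along the distance from the start of each cluster in kb (x axis), with the nearest gene and rank on the y axis, colours for the peaks they hold, and triangles for copies of the 4.5S RNA gene. The regions of ranks 1 and 2 recur at 4259 to 5598 bp from copy to copy, while the spacing in the other clusters is uneven.

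Leaving these clusters aside, the largest clusters at protein-coding genes were as follows. The cluster with 7 regions, at chr12:73732852-73787417, began in Prkch, which encodes protein kinase C eta, and extended past its end towards Hif1a, the oxygen-regulated transcription factor gene. Prkch held 5 of the regions. The nearest start site was that of Prkch for 4 regions and that of Hif1a for 3. Peaks of both ends lay in 6 of the 7 regions, and the remaining one, 343 bp wide, was called in the proximal list alone. The 6 regions of the Dlgap1 cluster (chr17:70706888-70748459), inside this gene of a synaptic scaffold protein, all had peaks of both ends, with widths from 626 to 1614 bp. AP-1 letters were in 1 and RUNX letters in 3 of them. The 6 regions of the Trim32 cluster (chr4:65475957-65496852) lay in introns of Astn2, the gene in which the ubiquitin ligase gene Trim32 is nested. Of these, 4 had peaks of both ends, 1 a proximal and 1 a distal peak alone, and 3 held AP-1 letters.

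The cluster at Serp2 (chr14:76570303-76616553), near a gene for a stress-associated protein of the endoplasmic reticulum, had 6 regions and the lowest share of regions with peaks of both ends among the clusters of 5 or more. In it, 1 region had peaks of both ends, while 2 had a proximal and 3 a distal peak alone. Its regions were 341 to 779 bp wide. Serp2 was also the gene of a cluster of 3 regions 101266 bp away and of a cluster of 4 regions 230582 bp away. In the latter, 2 regions were nearest to Serp2 and 2 to Lacc1. The Lrrc1 cluster (chr9:77456410-77488053), in introns of that gene, was likewise mixed, with 1 region of both ends, 2 proximal only and 2 distal only. Among clusters of 5 or more regions, Lrrc1 had the largest share of proximal-only regions (2 of 5), followed by Serp2 (2 of 6) and by Rin2, Diaph1 and Trib1 (1 of 5 each, taken from a larger tie by base pairs covered). Serp2 had the largest share of distal-only regions (3 of 6), followed by Diaph1, Ccdc121, St6galnac3 and Lrrc1 (2 of 5 each).

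**Figure D3:**
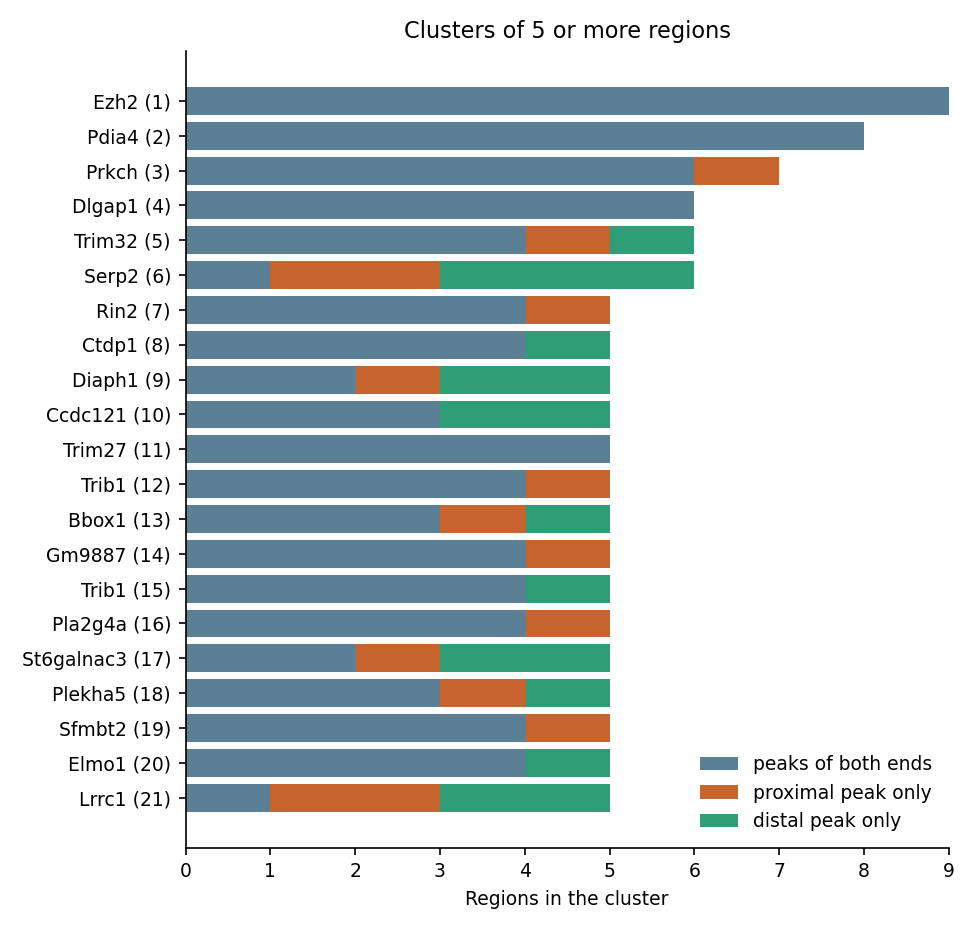
Number of regions (x axis) in each of the 21 clusters of 5 or more regions, with the nearest protein-coding gene and rank on the y axis, split by the lists in which the region was called. All regions of the clusters at Ezh2, Pdia4, Dlgap1 and Trim27 have peaks of both ends, while those at Serp2 and Lrrc1 have 1 such region each.

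Of the 21 clusters with 5 or more regions, 4 had peaks of both ends in every region, 13 had at least 1 proximal-only region, 11 had at least 1 distal-only region, and 7 had both kinds. All regions lay inside 1 protein-coding gene in 9 of them. The Rin2 cluster (chr2:145723485-145756643), inside a gene for a Ras and Rab effector, held the widest clustered region, 2022 bp. Trib1, which encodes a pseudokinase that regulates protein degradation, had a cluster of 5 regions on each side. The one at chr15:59585129-59600438 lay 47912 bp before its start in introns of Nsmce2, and the one at chr15:59715834-59746791 lay on the other side, 67181 bp from its start. In each, 4 regions had peaks of both ends. The Plekha5 cluster (chr6:140455846-140491612) had AP-1 letters in 4 of its 5 regions. One of these was proximal only, 1 distal only and 2 had peaks of both ends.

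The remaining clusters of 5 regions were nearest to Ccdc121, Gm9887, Bbox1 of carnitine synthesis, the cytosolic phospholipase A2 gene Pla2g4a, the sialyltransferase gene St6galnac3, the Polycomb gene Sfmbt2, the Rac regulator gene Elmo1, the formin gene Diaph1, and Ctdp1, which encodes a phosphatase of RNA polymerase II. In the Ctdp1 cluster 2 of the regions were nearest to Nfatc1, a calcium-regulated transcription factor gene. In the Ccdc121 cluster 2 were nearest to Dnah14, which encodes an axonemal dynein. The Bbox1 cluster had 1 region nearest to Ccdc34, and the Diaph1 cluster had 1 nearest to the protocadherin gene Pcdhgc5. Among these 9 clusters, peaks of both ends lay in 2 to 4 of the 5 regions. The largest clusters of 4 regions included one near Col6a2, which encodes a chain of the pericellular collagen VI, in which all regions had peaks of both ends. At Errfi1, the gene of an inhibitor of the EGF receptor, 3 of 4 regions did so, and the same held for a cluster inside the glypican gene Gpc6, whose nearest start site was that of the melanin enzyme gene Dct.

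Each cluster was given the protein-coding gene with the nearest start site for most of its regions, with ties going to the smallest distance. This gave 385 genes, or 1.85% of 20807 autosomal protein-coding genes. All regions were nearest to 1 gene in 357 clusters. Clusters lay within 50 kb of the start of their gene in 268 cases and beyond 100 kb in 73. In 150 clusters all regions were inside 1 protein-coding gene, and in 232 none was. The start of a gene can be nearest without being the target, and nearness is no measure of expression. Genes with more room around them can also collect more regions. The span between neighbouring protein-coding start sites had a median of 422 kb around cluster genes and 91.5 kb around all protein-coding genes.

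The cluster genes often had an accessible promoter. A merged region lay within 3 kb of a start site of 329 of the 385 cluster genes (85.5%, interval 81.6 to 88.6%), against 61.4% (60.7 to 62.1%) of the other protein-coding genes. Peaks of both ends lay at the promoters of 78.7% of cluster genes and 56.8% of the others. The rule did not use these promoter regions. Genes nearest to pairs or to regions that stood alone were not compared separately. The values therefore do not show whether this trait is particular to clusters. Exceptions with no promoter region included Serp2, Ccdc121, Dct, Dcn, Prg4 and Mepe. Of the 408 clusters, 10 had a promoter region within their span.

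Genes of the growth plate were among the cluster genes, and the lists were drawn up with earlier results of these data known. Of 20 transcription factors of cartilage, 4 (20%) had a cluster, namely Sox9, Sox5, Trps1 and Foxa2. Of 28 cartilage matrix genes, 4 (14.3%) had one, Col11a1, Hapln1, Hspg2 and Papss2. Of 19 autosomal genes of joint and perichondrium, 5 (26.3%) had one, Prg4, Sulf1, Dcn, Tnc and Has2. Growth plate signalling genes had 2 of 50 (4%, interval 1.10 to 13.5%), Tgfb2 and Tgfbr2. That interval includes the share over all protein-coding genes. A gene was counted only if its start was nearest to most regions of a cluster or, in a tie, had the smallest distance. The signalling genes Fgfr2 and Hif1a were therefore not counted. All regions of a cluster given to Tacc2 also lay inside Fgfr2, and Hif1a was nearest to 3 of the 7 regions of the Prkch cluster. Fgfr2 was named after the values had been seen. The share over all protein-coding genes was the 1.85% given above, and with lists of this size the intervals were wide, from 8.07 to 41.6% for the cartilage transcription factors. Median spans between neighbouring start sites were 654 kb for the cartilage transcription factors, 564 kb for joint and perichondrium and 373 kb for signalling. The matrix genes had a median of 125 kb, nearer to the 91.5 kb of all protein-coding genes than to the 422 kb of cluster genes. The part of the span in these counts was not tested.

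The remaining lists had 0 or 1 gene with a cluster each, and their intervals were wide. Of 37 limb patterning transcription factors, 0 had a cluster (upper limit 9.41%), a limit above the 1.85% of all protein-coding genes, and their median span was 419 kb. Markers of skeletal muscle (0 of 12), of endothelium (0 of 10) and of nerve and epithelium (0 of 12) had none. Osteoblast markers had Mepe (1 of 9, 11.1%, interval 1.99 to 43.5%). Blood cell markers had Runx1 (1 of 9, with the same share and interval), which is also expressed in skeletal cells. The AP-1 family had Fosb (1 of 14, 7.14%, interval 1.27 to 31.5%). These shares were above the 4% of the signalling genes. Their intervals overlapped that of the cartilage matrix genes, 5.70 to 31.5%.

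**Figure D4:**
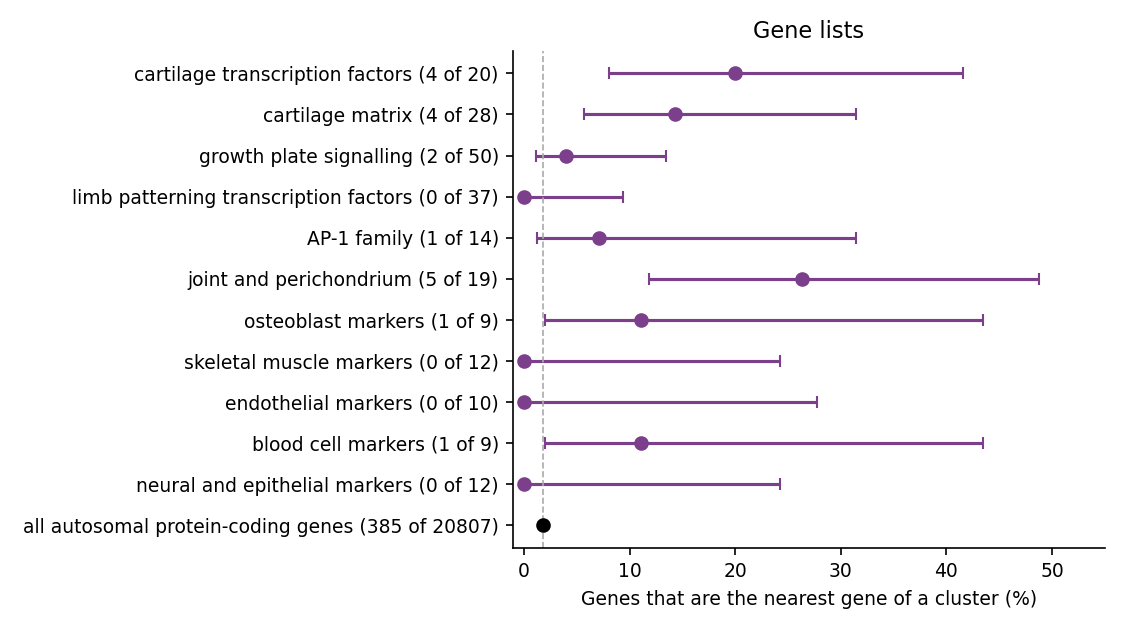
Percent of the genes of each list that are the nearest gene of a cluster (x axis), with 95% Wilson intervals and the counts beside the list names on the y axis; the dashed line marks 1.85%, the share of all autosomal protein-coding genes. Joint and perichondrium, cartilage transcription factors and cartilage matrix lie furthest to the right, and 4 lists lie at 0.

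Sox9, the master transcription factor of cartilage, lay between its clusters of 3 regions each. The upstream cluster (chr11:112610641-112622030) was 160194 bp from the start of the gene and had 2 regions of both ends and 1 proximal only. The downstream cluster (chr11:113000960-113011301) was 218736 bp away and had 1 region of both ends and 2 proximal only. AP-1 letters were found in 2 regions of each. Sox5, which acts with Sox9, also had a pair of clusters, one with 4 regions past the end of the gene, 306010 bp from its nearest start site, and one with 3 regions inside the gene. Together they held 3 regions of both ends, 2 proximal only and 2 distal only. At Trps1, a zinc finger gene of skeletal growth, 3 regions of both ends lay 565712 bp from the start. At Foxa2, a transcription factor gene of hypertrophic chondrocytes, 1 of 3 regions had peaks of both ends and 2 were distal only.

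Among matrix genes, Hapln1, which encodes the link protein that joins aggrecan to hyaluronan, had a cluster of 3 regions that all had peaks of both ends, 75395 bp from its start. Col11a1, for a chain of the cartilage collagen XI, had 2 regions of both ends and 1 proximal only. Papss2, for an enzyme that makes the sulphate donor of proteoglycans, and Hspg2, for the heparan sulphate proteoglycan perlecan, had 1 region of each kind. For the joint genes, Prg4, which encodes the joint lubricant lubricin, had a cluster 6207 bp from its start with 2 regions of both ends and 1 proximal only. Sulf1, for an enzyme that removes sulphate from heparan sulphate, had 3 regions of both ends. Dcn, for the proteoglycan decorin, had 2 of both ends, 1 proximal only and 1 distal only, and Tnc, for the matrix protein tenascin C, had 2 of both ends and 1 distal only. The 3 regions nearest to Has2, a hyaluronan synthase gene, were 661 to 815 bp wide and all proximal only, at 262163 bp from its start.

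The signalling genes Tgfb2, a ligand, and Tgfbr2, its receptor, both had clusters. At Tgfb2 (chr1:186493490-186528041, 4 regions) 2 regions had peaks of both ends and 2 were proximal only. At Tgfbr2, 2 of 3 regions had peaks of both ends and 1 was distal only. At Mepe, a gene of mineralized matrix, 3 of 4 regions had peaks of both ends and 1 was distal only. The regions starting at chr5:104380509 and chr5:104383561 had Spp1, also a listed osteoblast marker, as their nearest RefSeq gene start. It lay 53845 and 51160 bp away. All 3 regions at Fosb and at Runx1 had peaks of both ends.

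Several genes had more than 1 cluster. There were 21 such genes, of which Serp2 and Usp29 had 3 clusters each. The 6 regions at Spry2, an inhibitor of receptor tyrosine kinase signalling, all had peaks of both ends. By contrast, the clusters of Mtus1 had 2 regions of both ends and 4 distal only, and those of Actbl2 had 2 of both ends and 4 proximal only. Spry2, Usp29, Mtus1 and Actbl2 were named after the values had been seen.

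The sequence of the clustered regions was searched for motif letters in the central 200 bp on both strands, which the rule did not use. AP-1 letters (TGACTCA), bound by Fos and Jun proteins, were found in 426 clustered regions, or 31.5% (29.1 to 34.0%), and in 30.8% of the other non-promoter regions (30.0 to 31.5%). The share was 8.27% within 3 kb of start sites and 19.9% over all merged regions. AP-1 letters were spread over many clusters: 161 clusters had them in 1 region, 119 in 2 or more, 16 in all regions and 128 in none. The intervals of clustered and other non-promoter regions overlapped.

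AP-1 letters differed by femur end. They were found in 98 of 258 proximal-only clustered regions, or 38.0% (32.3 to 44.0%), and in 48 of 203 distal-only regions, or 23.6% (18.3 to 29.9%). Regions with peaks of both ends were between them at 31.4% (28.4 to 34.5%). The other non-promoter regions showed the same order, with 34.7% (33.1 to 36.4%) of proximal-only, 31.1% (30.2 to 32.1%) of shared and 24.4% (22.8 to 26.1%) of distal-only regions. In a window of 400 bp the clustered shares were 46.9%, 44.96% and 28.6% for proximal-only, shared and distal-only regions. Over whole regions they were 49.6%, 51.7% and 31.0%, so the order of shared and proximal-only regions changed with the window, while distal-only regions were lowest in each. With 1 list per end, these values compare lists and carry no replicate error.

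RUNX letters (TGTGGTT), read by Runx factors of skeletal development, were in 7.98% of clustered regions (6.65 to 9.55%) and 6.40% of the others (6.03 to 6.80%), with 4.63% of all merged regions. The 108 clustered regions with RUNX letters include 1 of the first and 6 of the second cluster of the 4.5S RNA array, whose copies are close to identical. By femur end, RUNX letters were in 6.98% of proximal-only (4.46 to 10.8%), 8.52% of shared (6.86 to 10.5%) and 6.90% of distal-only clustered regions (4.15 to 11.2%), with overlapping intervals. In the other non-promoter regions the shares were 8.13% (7.24 to 9.12%), 6.49% (6.01 to 7.002%) and 3.96% (3.28 to 4.77%). TEAD letters (GGAATG) were in 14.3% and 13.9%, with 10.7% of all. E-boxes (CAGCTG) were in 16.2% and 14.7%, with 13.7% of all, and ETS letters (CAGGAAGT) in 3.03% and 2.89%, with 2.46% of all. SOX letters (ACAATGG) were in 1.33% and 1.31%, with 1.20% of all, and CRE letters (TGACGTCA) in 0.665% and 0.483%, with 1.09% of all. In each of these pairs the intervals overlapped.

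Motifs that were less frequent in clusters than in the other non-promoter regions were those of CTCF and PBX. The CTCF core, the motif of a factor that organizes chromosome loops, was in 3.40% of clustered regions (2.56 to 4.51%) and 5.59% of the other non-promoter regions (5.24 to 5.97%), with 3.93% of all merged regions. PBX letters (TGATTGA) were in 0.813% (0.455 to 1.45%) and 1.74% (1.54 to 1.96%), with 1.31% of all. For both, the interval of the clustered regions lay below that of the others but included the share over all merged regions. It also overlapped the interval of pairs, 4.12 to 5.60% for CTCF and 1.20 to 2.07% for PBX. The PBX letters were in only 11 clustered regions. The SOX inverted pair (ACAAT and ATTGT with 3 to 5 bases between) was in 0 clustered regions, and the full NFI site (TTGGC and GCCAA with 5 bases between) in 1, against 0.0247% and 0.0432% of all merged regions. A match of letters is not a bound site, and 11 motifs were searched without a correction.

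**Figure D5:**
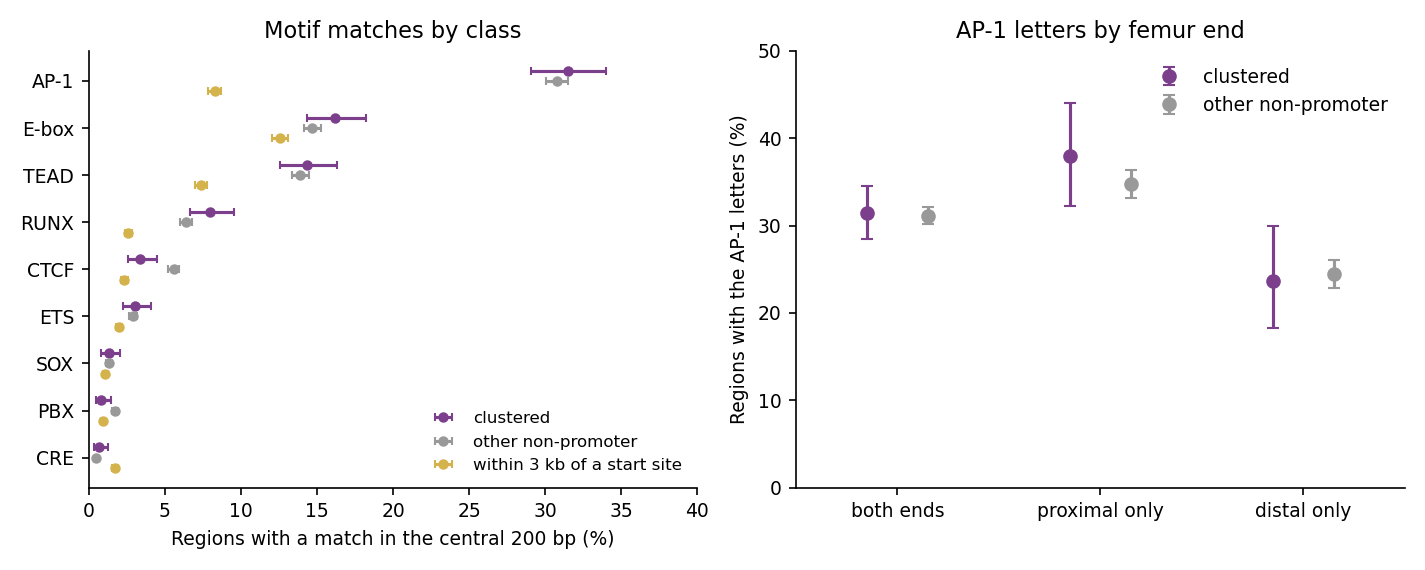
Left, percent of regions with motif letters in the central 200 bp (x axis) for 9 of the 11 motifs searched (y axis), in clustered, other non-promoter and promoter regions, with 95% Wilson intervals. Right, percent of regions with AP-1 letters (y axis) by the lists in which the region was called; proximal-only clustered regions lie at 38.0% and distal-only ones at 23.6%.

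Enhancers tested in transgenic embryos by the VISTA project and carried in the RefSeq annotation overlapped 16 clustered regions, or 1.18% (0.729 to 1.91%), against 0.522% (0.420 to 0.649%) of the other non-promoter regions. Those active in limb overlapped 7 clustered regions, or 0.517% (0.251 to 1.06%), against 0.144% (0.0949 to 0.217%). Tested elements were chosen by that project and do not sample the genome evenly. Their recorded activity names the limb as a whole, which is not a measure of activity in femoral cartilage at E15.5. The limb-active elements lay in clusters nearest to Sec61g, Synpo, Chd9, Tnrc6a, Lrig1 and Alox5ap, of which Synpo had 2 regions in the same element. These genes were named after the values had been seen. The element in the Sec61g cluster (chr11:16558869-16559788) overlapped a region of both ends in a cluster of 4 regions, of which 2 were proximal only.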

How the data were processed

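The series holds 1 deposited peak list per femur end, made from 2 biological replicates. Per the labels and the study's methods, the authors used Bowtie2 (2.2.8) to align to mm10, removed duplicates, called peaks with MACS2 (2.1.1 in the submitters' processing notes) and kept peaks reproducible between these at IDR (irreproducible discovery rate) below 0.05. The deposited lists give chromosome, start and end only, so no depth, height or test of replicates could be used. Peaks were merged on overlap of at least 1 bp, and start sites came from GENCODE release 21. Each region was called by the lists with a peak in it. Sequence came from GRCm38, and tRNA genes, 4.5S RNA and VISTA elements from RefSeq. Copies were found with BLAST+ 2.17.0 (word size 11). Scripts ran in Python 3.11.15 with pysam 0.24.0 and matplotlib 3.10.9, and intervals used SciPy 1.17.1. On simulated data, 7 of 7 quantities were recovered exactly. Named genes were those of the 25 clusters with the most regions, of the 5 clusters with the largest proximal-only and the 5 with the largest distal-only share among clusters of 5 or more, and listed genes with a cluster, and some results that this rule covers are not reported here. The members and lists were chosen with earlier results of these data known.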

Additional observations from a re-analysis of the deposited data

How the results depend on the processing

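A count was taken as unmoved within a factor of 1.5 of its main value, and a share within the 95% Wilson interval of its main value. Of 72 values under other settings, 46 were unmoved and 26 moved. With a stitching gap of 5 kb there were 270 clustered regions in 83 clusters at 80 genes, with 68.5% of both ends. With 25 kb there were 3385 regions in 939 clusters at 845 genes. Clusters of 5 or more gave 117 regions in 21 clusters at 20 genes, with 72.6% of both ends and 25.6% (30 regions) with TGACTCA. The clusters of ranks 1, 2 and 11, with 4.5S RNA copies or tRNA genes, had 0 regions with these letters. All 30 were thus among the 95 regions of the clusters of 5 or more that held neither. Keeping peaks no narrower than their list's median gave 88 regions in 26 clusters at 26 genes, with 60.2% of both ends in clusters and 49.3% elsewhere, and TGACTCA in 17.0% and 24.8%. An overlap of 50% of both peaks gave 60.5% of both ends outside clusters. Start sites of protein-coding genes alone gave TGACTCA in 29.8% of the other regions. TGACTCA was in 48.2% of clustered and 46.3% of other regions over the whole region, and in 42.9% and 41.5% over 400 bp. A pair of alternatives was chosen after seeing the data: adding RefSeq gene starts gave 62.9% of both ends in clusters, and leaving out regions at a 4.5S copy or tRNA gene moved none of the 7 values. The share of both ends was higher in clusters than elsewhere under 11 of 11 settings, by 1.71 to 10.9 percentage points. That of TGACTCA was higher under 8 of 11. All settings reuse the same lists and are not independent. The largest difference, with the wider peaks, rested on 53 of 88 regions (49.8 to 69.8%, against 48.0 to 50.7% elsewhere). Intervals overlapped there and at the smallest difference, with RefSeq gene starts added. No paired analysis was possible because each femur end has 1 list and no test was made. The causes of these shifts were not tested. Without heights or replicates, calls in one list alone cannot be told apart from peaks just below the threshold in the other.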
